A study of Caenorhabditis elegans with 2 samples.

Results

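Autosomal single-gene promoter regions are stretches on the pooled list from UNC-39 ChIP-seq that lie just upstream of 1 protein-coding gene and face no second promoter. That list also holds background. A region of the pooled list was taken when its summit lay on an autosome, outside every protein-coding gene body and within 500 bases upstream of a protein-coding transcript start. Regions were dropped when the start of a gene on the opposite strand also lay within 500 bases with the summit upstream of it, which keeps divergent promoters apart. This gave 1976 of the 30000 pooled regions, or 8.17% (exact 95% interval 7.83 to 8.52) of the 24193 on autosomes. They belonged to 1888 genes, of which 1800 had 1 such region and 88 had 2. Positions alone chose these regions, so their signal values were not used in the choice.

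The 2 samples were whole Caenorhabditis elegans at the L4 larval stage, with both sexes mixed, and formed 1 group without any other condition. Both came from strain OP186, which is unc-119(ed3) III and carries the transgene wgIs186, so that UNC-39 was made as a fusion with a C-terminal GFP-FLAG tag. No untagged strain was analysed here, and chromatin was sheared by sonication. Both replicates thus share the transgene and the mutant background. Each list gave a signal value per region, the authors' own measure of enrichment, whose scale is not stated and which serves here to rank regions within a list.

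UNC-39 is a homeodomain protein of the sine oculis family, which acts in mesoderm and in neurons of the worm, and such factors bind short sequences in promoters and enhancers. Worm promoters are compact, and the stretch just upstream of a start often holds much of a gene's regulatory sequence. Sequence near a start is also accessible in many cell types, and ChIP-seq of unrelated factors often recovers the same accessible promoters. In whole larvae, the number of nuclei bound and the occupancy per nucleus cannot be told apart.

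The strongest of these promoters show what sequence lay under the summits. The windows printed here are 201 bases long, centred on the summit and read on the strand of the gene, from ce11 (WBcel235). They were chosen because they hold 5 of the 8 regions that also stood on the authors' optimal list, plus W02B3.3, the next strongest, which is rich in repeats of GA. Capitals mark the dinucleotide repeats GAGAGA or ACACAC or GCGCGC, and the words CGTCTC or CTGCGTCT, on either strand. CTGCGTCT shares its last 5 bases with CGTCTC, and the other strand of GAGAGA can overlap the end of CGTCTC, as it does in sec-61.G. A match is a description of these letters and not a binding site.
R107.5 (chrIII:9053968-9054168, minus strand): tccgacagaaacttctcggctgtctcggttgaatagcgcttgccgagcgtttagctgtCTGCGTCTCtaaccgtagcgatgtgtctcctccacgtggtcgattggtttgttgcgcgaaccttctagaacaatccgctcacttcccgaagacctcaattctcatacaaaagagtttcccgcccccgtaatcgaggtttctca
tasp-1 (chrIII:10759148-10759348, plus strand): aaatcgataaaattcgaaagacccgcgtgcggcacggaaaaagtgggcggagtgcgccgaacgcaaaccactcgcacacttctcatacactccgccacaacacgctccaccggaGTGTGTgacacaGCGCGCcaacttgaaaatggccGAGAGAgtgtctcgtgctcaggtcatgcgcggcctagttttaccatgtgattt
his-37 (chrV:9546891-9547091, plus strand): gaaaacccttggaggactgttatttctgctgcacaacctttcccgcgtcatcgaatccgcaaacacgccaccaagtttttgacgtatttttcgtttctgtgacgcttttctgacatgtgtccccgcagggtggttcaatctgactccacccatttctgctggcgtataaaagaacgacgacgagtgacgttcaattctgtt
wip-1 (chrIII:5018159-5018359, plus strand): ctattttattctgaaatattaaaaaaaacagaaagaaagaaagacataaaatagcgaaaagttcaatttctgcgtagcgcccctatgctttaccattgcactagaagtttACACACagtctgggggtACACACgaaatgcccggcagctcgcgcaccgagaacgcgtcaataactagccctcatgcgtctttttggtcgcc
sec-61.G (chrV:10897305-10897505, minus strand): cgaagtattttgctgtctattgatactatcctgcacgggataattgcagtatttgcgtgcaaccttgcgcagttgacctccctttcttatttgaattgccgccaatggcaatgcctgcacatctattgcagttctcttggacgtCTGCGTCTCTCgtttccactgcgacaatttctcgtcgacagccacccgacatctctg
W02B3.3 (chrIII:668371-668571, minus strand): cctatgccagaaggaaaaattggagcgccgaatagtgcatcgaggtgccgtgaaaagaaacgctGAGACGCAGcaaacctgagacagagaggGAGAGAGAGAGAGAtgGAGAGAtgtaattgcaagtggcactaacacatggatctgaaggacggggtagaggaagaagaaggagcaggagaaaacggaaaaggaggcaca

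The words fell unevenly over these windows. R107.5 and sec-61.G held CTGCGTCT running into CGTCTC on the gene's strand, and W02B3.3 held the same pair on the other strand beside a run of GA repeats. The tasp-1 window held GAGAGA as well as ACACAC and also GCGCGC, while the wip-1 window held ACACAC alone of the marked words. No marked word occurred in the his-37 window, although its pooled signal value was 29.7. The G+C content ran from 43.3% for wip-1 to 54.7% for tasp-1, above the median of 33.3% for 58106 windows tiled over the same class of promoter sequence.

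The question of where these promoters stood among all listed regions was addressed by signal value and density. The optimal list, which the authors derived from the pooled and replicate lists by IDR (irreproducible discovery rate, based on how well ranks repeat), held 8 of the 1976 regions (0.405%, interval 0.175 to 0.796). The background was 0.174% of all autosomal regions, 42 of 24193, and 0.210% of the whole pooled list. Among the 500 strongest autosomal regions there were 59 single-gene promoters, or 2.99% of the 1976 (2.28 to 3.83). Over all autosomal regions this share was 2.07%, and over the other autosomal regions 1.98% (1.81 to 2.18). The 500th region had a signal value of 15.5. The median signal value of all members was 7.71 (quartiles 6.47 and 9.66), close to the 7.59 of the others, and both lay near the lowest value of the list, 5.58. That list was relaxed on purpose so as to include background, and no read counts came with it. The deposited −log10 q, which is higher for a smaller q, was 0.597 for cox-5B, the 25th strongest member. It was 0.0370 for mrps-31, whose signal value of 7.74 lies near the median. A member is thus a listed region and not by itself evidence of binding.

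Density was also higher in this class. The pooled list had 341.9 regions per Mb of the 5.78 Mb of sequence that fits the rule, against 289.4 per Mb of the other autosomal sequence. The same comparison gave 331.3 against 290.6 per Mb in replicate 1 and 314.2 against 292.7 in replicate 2, so the excess had the same direction in both. Divergent promoters were denser and stronger, with 437.6 regions per Mb and 9.5% (5.82 to 14.4) of their 200 regions among the 500 strongest. Exons of untranslated sequence had 359.6 per Mb, coding exons 301.7, introns 282.5 and distal intergenic sequence 271.4. That order did not hold in replicate 2, where coding exons had 330.7 per Mb, above the 314.2 of single-gene promoters. With 2 replicates, the smallest two-sided p of an exact sign-flip test is 0.5, so no test over samples was run. The differences between classes are descriptions, and intervals cover counting error over regions only, which are not replicates.

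**Figure D1:**
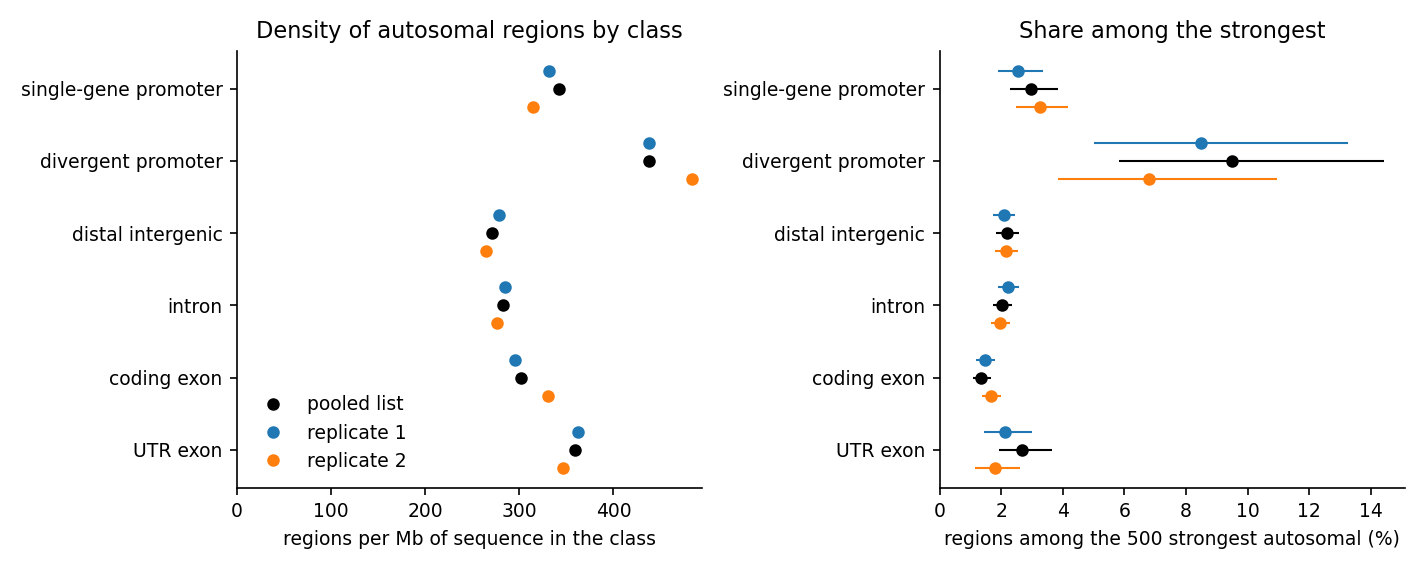
Density (left, regions per Mb of sequence in the class) and share among the 500 strongest autosomal regions (right, %, with exact 95% intervals) for 6 positional classes, in the pooled list and in each replicate. Single-gene promoters had 341.9 regions per Mb in the pooled list and 2.99% of them among the 500 strongest, below divergent promoters on both counts.

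The replicates put different promoters at the top, which is shown gene by gene for the 8 on the optimal list. The region 278 bases upstream of R107.5, a gene known here by its sequence name, was the strongest of all autosomal regions with a pooled signal value of 44.7. It ranked 1 in replicate 1, with 34.6, and 138 in replicate 2, with 10.6. The region 124 bases upstream of tos-1 had 31.4, and its ranks were 10 and 1197. That 244 bases upstream of rpl-3, which encodes a protein of the large ribosomal subunit, had 30.8 and ranks of 11 and 1452. Both were thus carried mostly by replicate 1. The same held for his-37, a histone H4 gene (pooled value 29.7, ranks 52 and 2712), and for wip-1, a WASP-interacting protein gene (26.2, ranks 31 and 3385). The opposite held for tasp-1, which encodes the protease taspase, with 30.8 and ranks of 5005 and 1. It held too for tub-2, a Tubby-related gene whose summit lay 6 bases from its start, with 27.9 and ranks of 6094 and 4. The region of sec-61.G, the gamma subunit of the Sec61 translocon, had 25.9 and ranks of 1652 and 117. The deposited −log10 q was 1.94 for each of the first 6 by signal value, 1.31 for wip-1 and 1.34 for sec-61.G.

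The next 17 had pooled signal values from 18.6 to 24.1. Below W02B3.3 (24.1, ranks 675 and 27) came Y22D7AL.10 (22.7, ranks 272 and 505), whose upstream neighbour on the opposite strand is hsp-60, the mitochondrial chaperonin gene. The ribosomal protein gene rpl-35 had 22.6 and ranks of 814 and 264, and unc-108, which encodes the Rab2 GTPase of dense-core vesicle traffic, had 22.4 and ranks of 309 and 85. The chemoreceptor gene sri-5 (22.1, ranks 221 and 721) and cdc-48.1, the p97 AAA ATPase gene (21.3, ranks 238 and 592), were also high in both. Among the 25 strongest, ranks within 1000 in both replicates were held by these 5, by R107.5 and W02B3.3, and by vps-60 and sor-1. The region of vps-60, an ESCRT-III gene, had 20.02 and ranks of 614 and 489. The region of sor-1, which acts in Polycomb-type repression, had 18.9 and ranks of 505 and 229. Uneven pairs occurred here as well. The region of hlh-30, the worm TFEB gene, had 20.2 and ranks of 5986 and 76, and that of ugt-53, a glucuronosyltransferase gene, had 20.2 and ranks of 1333 and 14598. Close to these in value were nlp-24, a neuropeptide-like gene (20.3, ranks 242 and 3021), and mrck-1, a kinase gene of the Cdc42 pathway (20.3, ranks 452 and 1222). The chaperonin gene cct-2 (18.7, ranks 1428 and 757) and cox-5B, a cytochrome oxidase subunit (18.6, ranks 407 and 2050), closed the set. C33A12.4 (19.02), T28B8.1 (18.7) and C34C12.8 (18.7) ranked 146, 64 and 45 in replicate 1 and were absent from the list of replicate 2.

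**Figure D2:**
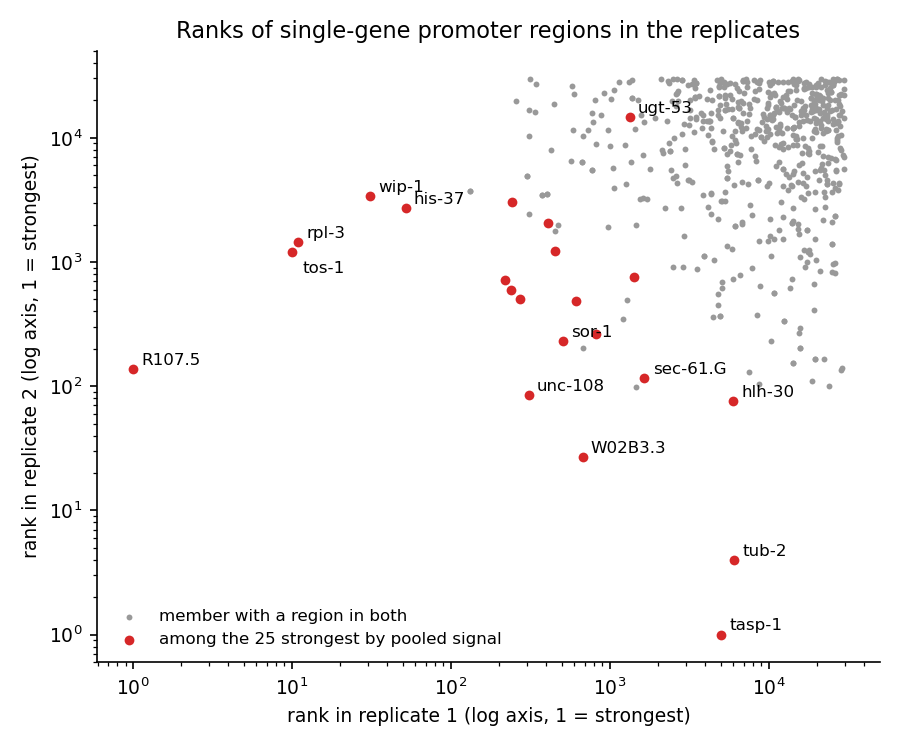
Rank in replicate 1 (x, log axis) against rank in replicate 2 (y, log axis) for the 638 members with a region in both lists, where rank 1 is the strongest region of a list. Red points are those of the 25 strongest by pooled signal with a region in both, and R107.5, with ranks of 1 and 138, lies nearest the corner of joint high rank.

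Over all members, 1401 (70.9%, interval 68.8 to 72.9) were overlapped by a region of replicate 1 and 1059 (53.6%, 51.4 to 55.8) by one of replicate 2, counting an overlap of at least 1 base. A single replicate region could overlap 2 members, as at hlh-30, sor-1 and sec-61.G. Both lists held 638 (32.3%, 30.2 to 34.4), and 154 (7.79%) had a region in neither. The other autosomal regions gave 67.8%, 53.7%, 30.5% and 8.99% in the same order. The share in both rose to 63.2% of the 500 strongest members and to 83 of the 100 strongest. This rise is partly built in, since the pooled list was made from both alignments. The strongest member with a region in neither list was upstream of col-90, a collagen gene, at 10.9. The strongest without replicate 1 was upstream of tif-1A at 15.9.

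Ranks repeated little beyond presence. Among the 638 members in both lists, Spearman's rho between the replicates' signal values was 0.11 and Pearson's r of their log2 values was 0.15. Among the 316 of these in the 500 strongest, rho was −0.09 and r −0.03, and choice by the pooled value can itself lower these. These are descriptions across regions of the same pair of libraries. Regions among the first 2000 of both replicates numbered 24 (1.21%, 0.780 to 1.80), against 0.747% (0.638 to 0.869) of the other autosomal regions. Neighbouring members at sec-61.G and at sor-1 were counted separately, although they overlapped the same replicate regions. Besides genes named so far the 24 included F42A9.11 (ranks 1213 and 348), tba-2, an alpha tubulin gene (680 and 202), and iff-2, an eIF5A translation factor gene (1470 and 99). Some were modest in the pooled list, such as gpb-1, the G protein beta subunit gene, at 9.18 with ranks of 456 and 1778. Applying the positional rule to each replicate's own list gave 1915 and 1816 members. Their genes shared 399, which is 22.03% of the 1811 genes of replicate 1 and 23.0% of the 1733 genes of replicate 2, where 10.5% and 10.1% of all autosomal genes had a member in replicate 1 and in replicate 2. Among the 99 genes of the 100 strongest members of each replicate, 6 were shared: R107.5, sri-5, unc-108, cdc-48.1, Y22D7AL.10 and F42A9.11.

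Distance from the start made little difference within the 500 bases. The median distance was 220 bases (quartiles 103 and 352), and the 100 strongest had a median of 198. In steps of 100 bases from the start, the density was 350.8, 352.4, 328.5, 342.4 and 331.2 regions per Mb, after allowing for the sequence available in each step. The medians of signal were 7.74, 7.74, 7.77, 7.56 and 7.70. The strongest regions of the 5 steps belonged to tasp-1, tos-1, R107.5, wip-1 and rpl-35, so high values were not tied to 1 distance. The 269 regions just past the limit, more than 500 and up to 600 bases from a start, had a density of 292.4 per Mb, a median of 7.93 and a highest value of 40.9. Members lay about equally upstream of genes on the plus strand (50.8%) and on the minus strand.

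**Figure D3:**
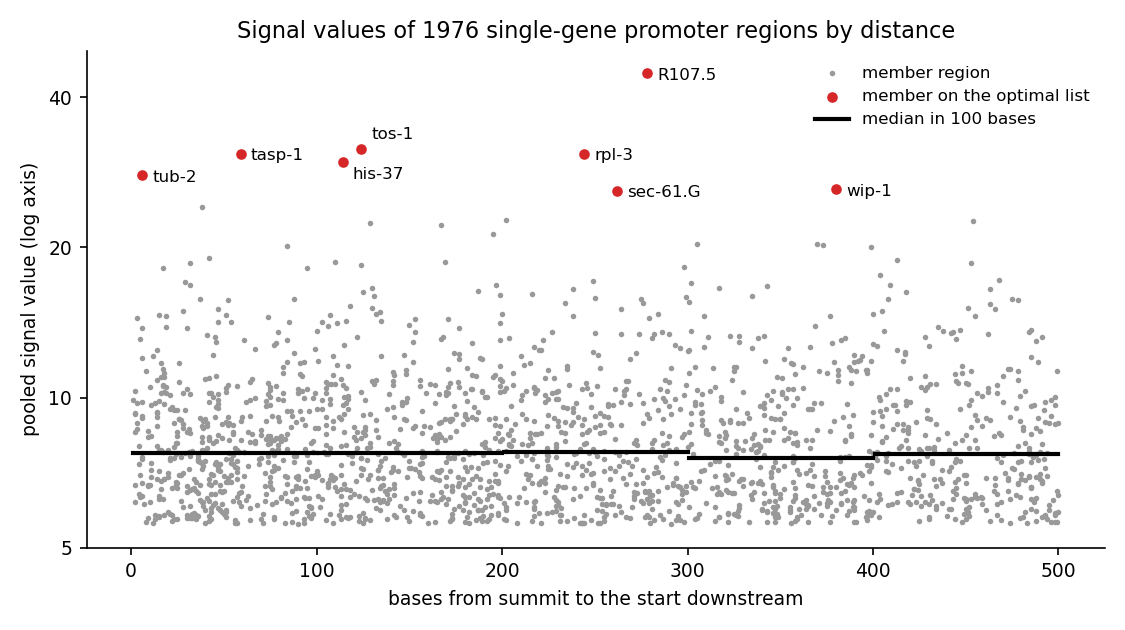
Pooled signal value (y, log axis) of each of the 1976 members against the distance in bases from its summit to the start downstream (x), with the median of each 100 bases as a black line. The 8 members on the optimal list, in red, lie from 6 bases (tub-2) to 380 bases (wip-1) from a start, while the medians stay between 7.56 and 7.77.

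The gene upstream of the intergenic stretch was on the same strand for 1138 members (57.6%, 55.4 to 59.8) and on the opposite strand for 837 (42.4%). Opposite neighbours start at a promoter of their own, beyond the 500-base limit. Density was 331.6 per Mb next to a gene on the same strand and 357.0 per Mb next to one on the opposite strand. The shares among the 500 strongest were 2.37% and 3.82%. Of the 25 strongest members, 15 had an opposite-strand neighbour, and for 7 its start lay within 1000 bases of the summit, against 211 (10.7%, 9.35 to 12.1) of all members. For R107.5 this neighbour was cls-2, a CLASP microtubule protein gene, 980 bases from the summit, and for wip-1 it was larp-1, an RNA-binding protein gene, at 609. For sri-5 it was rsr-1, a splicing factor gene, at 565 bases, and for tasp-1 it was K01G5.10 at 726. A region named for 1 gene by the 500-base limit can therefore lie close to a second promoter.

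Base composition rose with signal. The median G+C content was 48.0% for the 8 members on the optimal list, 46.8% for the 25 strongest, 40.3% for the 100 strongest and 36.8% for the 500 strongest. It was 33.8% for the members ranked after 500, near the 33.3% of the tiled windows. A similar gradient appeared in some other classes, with 41.0% for the 100 strongest distal intergenic regions against 34.8% for that class, and 43.0% against 34.8% for introns. Divergent promoters changed less, from 35.1% for all to 35.8% for the 100 strongest, as did exons of untranslated sequence, from 33.8% to 35.3%. Coding exons did not show it, with 39.8% for all and 39.3% for the 100 strongest. Within the replicates' own lists, the 100 strongest members had 38.3% in replicate 1 and 39.1% in replicate 2, against 34.3% for all members of each. Whether base composition affects the ChIP-seq signal was not tested. Copy number of the sequence could be checked directly: every 32-base word of the median member occurred once in the genome, and 13 of all members (0.658%) and 0 of the 100 strongest had fewer than 50% unique words.

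**Figure D4:**
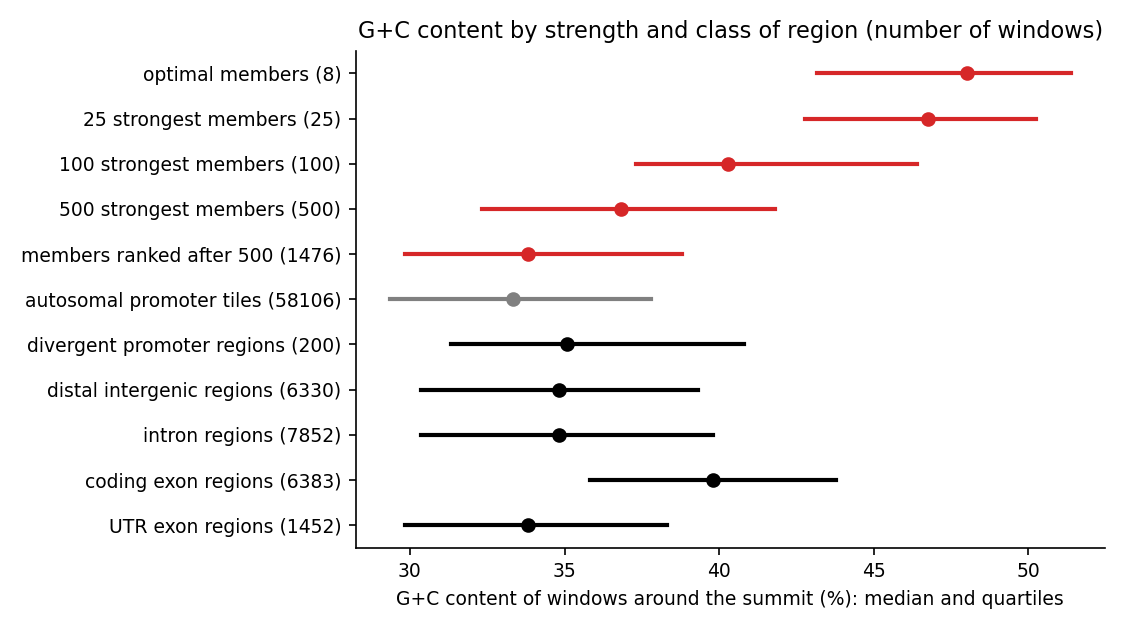
Median (point) and quartiles (line) of the G+C content (%) of 201-base windows centred on summits, for members by strength (red), for windows tiled over the same class of promoter sequence (grey) and for the other classes (black). The median falls from 48.0% for the members on the optimal list to 33.8% for the members ranked after 500.

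Short sequences in these windows were searched on both strands, 14 words in all, each given with its share of the tiled windows as the background. GAGAGA was in 12.8% of tiles, in 15.04% (13.3 to 16.97) of the members ranked after 500, in 23.2% (19.6 to 27.2) of the 500 strongest and in 36 (26.6% to 46.2%) of the 100 strongest. CGTCTC ran from 6.49% of tiles to 7.52%, 14% (11.1 to 17.4) of the 500 strongest and 17 of the 100 strongest. ACACAC went from 7.66% of tiles to 12.4% of the 500 strongest and GCGCGC from 2.00% to 5.60%. CTGCGTCT was in 2.43% of tiles, 3.46% of the weaker members and 6.20% (4.25 to 8.69) of the 500 strongest. The run TTTTTTTT went the other way, from 24.9% of tiles to 18% of the 500 strongest and 13 of the 100 strongest. TGATAA, the site of GATA factors, was in 20.9% of tiles, 18.4% of the 500 strongest and 11 of the 100 strongest.

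Words related to homeodomain and sine oculis sites were not clearly more frequent in the 500 or the 100 strongest members. TGACAC and also TGATAC, cores reported for sites of this family, were in 7.01% and 6.32% of tiles. They were in 7% (4.92 to 9.60) and 5.40% (3.59 to 7.76) of the 500 strongest members and in 8 and 4 of the 100 strongest. Each was in 3 of the 25 strongest (12%, 2.55 to 31.2). They were in 2 and 1 of the 8 on the optimal list, and such small counts decide nothing. Of the windows printed above, that of tasp-1 holds TGACAC and that of sec-61.G holds TGATAC, both unmarked. TAATTA, a core of many homeodomain sites, was in 11.1% of tiles and 10.9% of the weaker members. It was in 8.60% (6.29 to 11.4) of the 500 strongest and in 6 (2.23% to 12.6%) of the 100 strongest. Both intervals include the share of tiles, so a fall with strength is not clear. TAATTA was not compared at similar G+C content. TATAAA, the TATA box, was in 26.1% and 21.8%, and TTTCAG, the consensus at which introns end, in 34.03% and 29.6%. CACGTG, an E-box, went the other way, from 3.74% of tiles and 3.46% of the weaker members to 5.20% of the 500 strongest and 9 of the 100 strongest. The 8-base word TGACGTCA, the CRE, was in 1.24% of tiles and 1.20% of the 500 strongest. Absence of these letters says only that they are not in the windows.

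Composition and words moved together, so the shares were also taken within bands of G+C content. Among windows with 40% or more, GAGAGA was in 33.3% of the 165 windows of the 500 strongest, in 29.9% of the 288 weaker members and in 24.4% of tiles. In the same band CGTCTC was in 28.5%, 17.7% and 16.4%, ACACAC in 23.0%, 14.9% and 13.3%, and GCGCGC in 11.5%, 4.86% and 5.95%. Between 36% and 40%, GAGAGA stayed higher in the strongest (29.7% against 21.1% and 16.5%), whereas CGTCTC (8.11% against 10.7% and 9.24%) and also ACACAC (9.01% against 11.9% and 9.09%) did not. Between 32% and 36%, CGTCTC was again higher in the strongest (9.62% against 5.88% and 5.07%), while ACACAC was in 7.69%, 7.56% and 7.46%. CTGCGTCT was in 13.3%, 8.68% and 7.21% in the highest band and in 4.50%, 5.36% and 3.64% between 36% and 40%. The run TTTTTTTT was lower in the strongest between 32% and 36% (13.5% against 22.7% and 21.8%), and was in 9.70%, 13.5% and 9.86% in the highest band. The words also had a direction. GAGAGA was on the gene's own strand in 5.21% of members and on the other strand in 13.1%, so that the gene strand more often read its complement TCTCTC. By contrast CGTCTC was on the gene's strand in 5.97% and on the other in 3.39%, TTTTTTTT in 15.2% and 8.65%, and TTTCAG in 21.9% and 15.1%. The tiled windows leaned the same way, with 4.17% and 9.21% for GAGAGA, 4.32% and 2.41% for CGTCTC, 15.8% and 11.6% for TTTTTTTT, and 21.5% and 16.3% for TTTCAG, so the direction is shared with promoter sequence at large.

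The genes downstream were grouped by family and by tissue, in 30 lists. A region counted here is one on the relaxed pooled list, and its deposited −log10 q can be low, as the 0.0747 of ceh-32. The background was 11.0% of the 17242 autosomal protein-coding genes with a member region, at a median signal value of 7.76 for the strongest region of each gene. Among the 79 cytosolic ribosomal protein genes, 13 (16.5%) had a region. Per Mb of eligible sequence they had 809.8 regions against 341.9 over all genes. After rpl-3 and rpl-35 came rps-11, a small-subunit gene (11.2, ranks 18793 and 110), and rpl-38 (10.5, rank 317 in replicate 1 and none in replicate 2), each high in a different replicate. Most other parts of the translation and energy machinery had lower shares of genes than the background in the pooled list, but this did not hold per length or in each replicate. Per Mb of eligible sequence, mitochondrial ribosomal proteins (410.6), translation factors (487.6), tRNA synthetases (429.7) and the respiratory chain (411.7) were above the 341.9 of all genes. In replicate 1 the shares of translation factors (13.3%), the proteasome (12.1%) and the respiratory chain (11.1%) were above the 10.5% of all genes. By count in the pooled list the values were as follows. Mitochondrial ribosomal proteins had 5 of 70, translation factors 3 of 30, tRNA synthetases 3 of 32, the proteasome 1 of 33 and splicing factors 3 of 51. The respiratory chain had 2 of 36, cox-5B and cox-5A, both cytochrome oxidase subunits and both among the 500 strongest, where cox-5A had 16.6, rank 191 in replicate 1 and none in replicate 2. The V-ATPase, the proton pump of lysosomes, had 4 of 17, led by vha-6 at 10.2. Chaperones had 5 of 54, with hsp-1, the Hsc70 gene, at 16.3 and hsp-4, the BiP gene of the endoplasmic reticulum, at 10.3. Histones had 2 of 76, his-37 and hil-5, but only 14 of the 76 had any sequence that the rule could take.

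The pan-neuronal, neuropeptide and ligand-gated channel lists stood above the background by count in the pooled list, though not all of them did in each replicate. Chemoreceptors, taken with the large families below, stood under it (9.62%). The pan-neuronal list had 5 of 20 (25%), namely unc-108, snb-1, unc-104, rgef-1 and ehs-1. The region of snb-1, the synaptobrevin gene, had 13.02 and ranks of 17678 and 1203, and that of unc-104, a kinesin-3 gene of synaptic vesicle transport, had 10.6 and ranks of 3182 and 20026. Neither was strong in both replicates. Neuropeptides and insulins had 20 of 106 (18.9%), where only nlp-24 was among the 500 strongest and the median was 8.15. Ligand-gated channels had 10 of 73, at 319.4 per Mb and with 9.59% of genes in replicate 1, both below the values of all genes. They ran from lgc-51 at 15.1 to the glutamate-gated chloride channel gene avr-14 at 9.65 and the serotonin-gated mod-1 at 8.98 among those named. Kinesins and dyneins had 4 of 27, with 18.5% in replicate 1 and 7.41% in replicate 2. Tubulins and actins had 4 of 14 (28.6%), led by tba-2 at 14.7 and the beta tubulin gene tbb-2 at 10.7, but only 7.14% in replicate 1 and 14.3% in replicate 2. Small GTPases, a list without unc-108, had 1 of 31, arl-8, which acts in lysosome and synaptic vesicle transport, at 8.01.

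Regulators and mesodermal genes, where the sine oculis family is known to act, gave counts on either side of the background. Homeobox genes had 11 of 70 (15.7%) with a median of 7.82 and 0 among the 500 strongest. Among them were ceh-32, itself of the sine oculis family (10.5, rank 10487 in replicate 1 and none in replicate 2), ceh-20, a Pbx gene (10.4, ranks 7276 and 28008), zag-1, a ZEB-type gene of neurons (9.16), and lin-11, a LIM homeobox gene (8.63). Nuclear hormone receptors had 37 of 246 (15.04%), led by nhr-49, a regulator of fat metabolism, at 14.7 with ranks of 13543 and 615. The bHLH factors had 4 of 28 with a median of 11.5, and hlh-11 had 15.5 after hlh-30. The list of mesoderm lineage and coelomocyte genes had 1 of 15, which was again ceh-32. Muscle genes had 5 of 29, led by unc-112, the kindlin gene of muscle attachments (11.7, rank 550 in replicate 2 and none in replicate 1), with myo-1, a pharyngeal myosin gene, at 9.64 and unc-95 at 8.49. Intestine genes had 3 of 15, including asp-1, an intestinal protease gene, at 7.59, and end-3, a GATA factor gene of endoderm. Germline and sperm genes had 9 of 94, with spe-47 at 14.2 and mex-3, which encodes a translational repressor of the germline and embryo, at 8.88.

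Large families were mostly below the background by count in the pooled list. In the replicates, cytochrome P450 genes were above it in both (11.9% and 13.4%, against 10.5% and 10.1% of all genes), and collagens (11.7%) and C-type lectins (10.97%) in replicate 2. Chemoreceptors had 128 of 1331 genes (9.62%) and 241.6 regions per Mb, with sri-5 the only gene among the 500 strongest, then srx-13 at 14.4 and srr-9 at 14.1. F-box proteins had 18 of 305 (5.90%) and 179.3 per Mb, led by fbxa-63 at 10.4. C-type lectins had 23 of 237, of which clec-257 had 14.6 and ranks of 23828 and 100. Collagens had 11 of 137, led by col-106 at 13.6. Cytochrome P450 genes had 7 of 67, glutathione S-transferases 5 of 41, and glucuronosyltransferases 6 of 63, of which ugt-53 and ugt-66 (16.2) were among the 500 strongest. Lists of 14 to 36 genes turn on a few regions, and no share is called particular to a list.

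**Figure D5:**
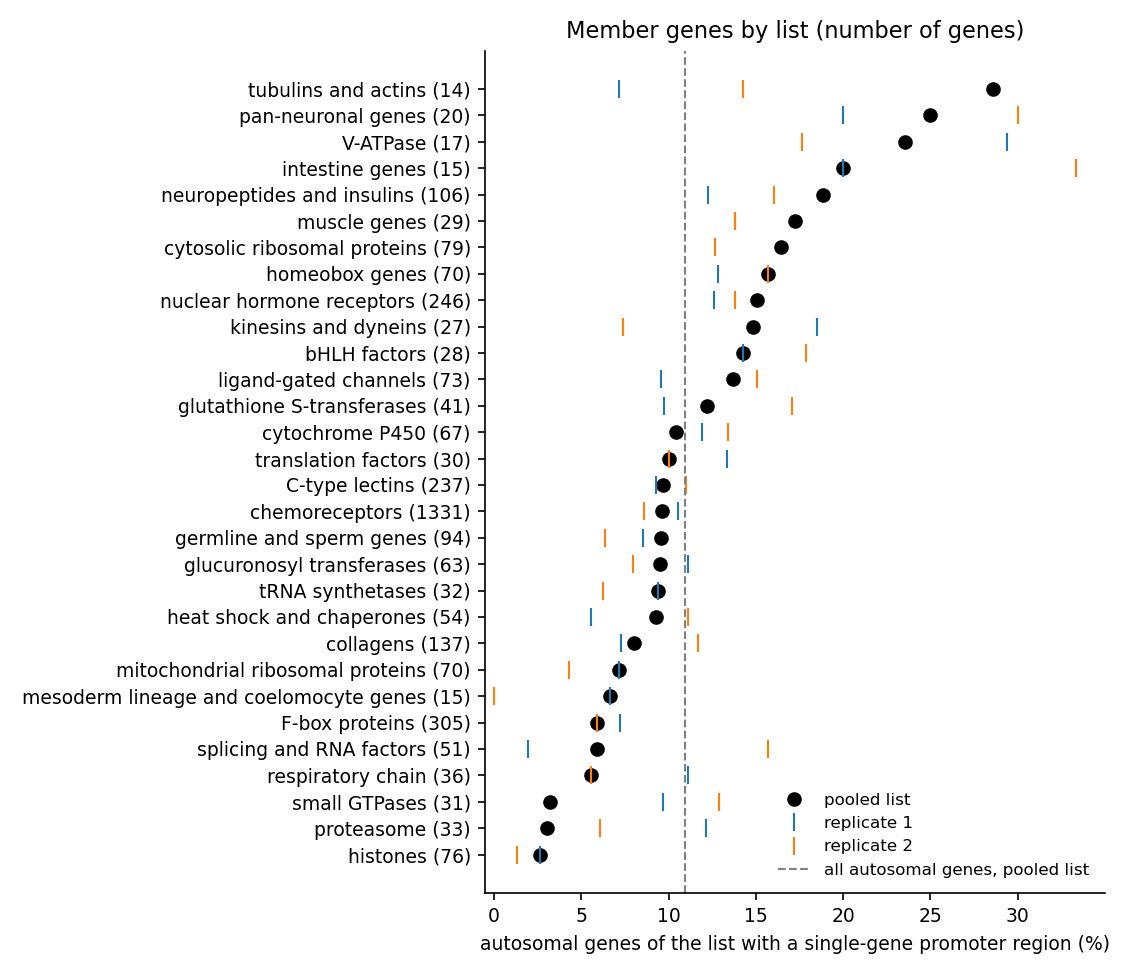
Share (%) of the autosomal genes of each of 30 lists that had a single-gene promoter region in the pooled list (points) and in each replicate's own list (ticks), with the number of genes in brackets and the 11.0% of all autosomal genes as a dashed line. Tubulins and actins (28.6%) and pan-neuronal genes (25%) lie highest and histones (2.63%) lowest in the pooled list, and the replicates differ for many of the short lists; where both have the same share, only the upper tick is visible.

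Short RNA genes are often enriched in ChIP-seq of unrelated factors, so they were looked for within 500 bases of each summit. A tRNA, snRNA, snoRNA, miRNA or piRNA gene lay there for 129 members (6.53%, 5.48 to 7.71), against 7.73% (7.38 to 8.09) of the other autosomal regions. Transfer RNA genes were near 13 members (0.658%), the same share as the 0.657% of the other autosomal regions. Their share was 1.60% (0.693 to 3.13) in the 500 strongest members. snoRNA genes were near 18 (0.911%, 0.541 to 1.44, against 0.698% of the others) and piRNA genes near 91 (4.61%, against 6.02% of the others). Among the 59 members within the 500 strongest autosomal regions, ugt-66 lay 53 bases from cel-mir-8206, tif-1A 22 bases from the snoRNA gene C36E8.11, and kvs-3 and ZK622.1 lay 90 and 27 bases from tRNA genes. Position alone cannot assign these 4 regions to the short RNA gene or to the protein-coding gene.

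By chromosome, density was 388.0 members per Mb on I, 330.3 on II, 375.0 on III, 328.6 on IV and 320.9 on V, while the medians of signal lay between 7.62 and 7.84. Chromosome III held 4 of the 8 optimal regions and 18 of the 59 among the 500 strongest, from 295 of the 1976 members. R107.5, tasp-1, rpl-3 and wip-1 were those 4. Of the remaining optimal regions, 3 were on V and 1 on I.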

How the data were processed

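UNC-39 ChIP-seq was measured in 2 biological replicates of L4 larvae, which form 1 group. The lists on ce11 hold 30000 regions each for replicate 1, replicate 2 and their pool, and 63 in the optimal list. The signal value (a score) and the −log10 q of each region are the authors' values as deposited, used only to rank or describe regions within a list. The aligner, peak caller, IDR threshold and depth were not given in the sources used here.

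Regions are 400 bases wide (404 in replicate 1). Ensembl release 115 genes on WBcel235, the assembly of ce11, gave the classes, and class density is regions per Mb of bases meeting the class rule. Windows of 201 bases were searched for 14 words on both strands. Tiles are such windows every 100 bases of eligible sequence. Intervals are exact Clopper-Pearson at 95% and cover counting error only. Class membership at random genome positions and overlaps of shifted regions were checked against a direct search. The word search was checked on random sequences with a planted word. Alternatives left out each replicate or changed distances, windows, overlap rules and numbers of regions. The members, words and 30 gene lists were chosen with earlier results of these data known. Genes named are the 25 strongest members, up to 4 of the strongest per list, and those strong in both replicates. Others were chosen after their values were seen. Scripts ran in Python 3.11.15 with scipy 1.17.1, matplotlib 3.10.9, pandas 2.3.3 and numpy 2.4.6. Windows of the other optimal members are not reported here.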

Additional observations from a re-analysis of the deposited data

How the results depend on the processing

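Of 139 alternatives, 63 kept the value within its error (1 SD between the replicates, the exact interval for the share in both, or 1.5 times for the number of members). That count does not measure stability. Both replicates gave the same median G+C, so any change in it counted as moved. Some alternatives changed the quantity itself, such as the 100 or 2000 in place of the 500 strongest. The difference in median signal value kept its sign in each alternative run. Taking only the 10000 strongest regions gave 702 members at 121.5 per Mb, of which 55.3% were in both replicates. Their median signal value exceeded that of the other autosomal regions by 0.0226 (0.123 over all regions). Of these members 8.40% were among the 500 strongest autosomal regions. The background is then also above 2.07%, since it is 500 of fewer than 8003 autosomal regions kept. The prp-6 region, at pooled rank 10021 and thus not kept, ranked 8003 among autosomal regions. With overlapping regions counted once, density was 311.3 per Mb and 29.8% were in both. The density of the other autosomal sequence was recomputed only for each replicate alone (290.6 and 292.7 per Mb). The other alternatives therefore do not show whether the excess in density remained. Leaving out each replicate gave densities of 314.2 to 331.3 per Mb, differences in median of 0.0137 to 0.146, a median G+C of 34.3% either way, 10.1% to 10.5% of genes with a member and 5.95% to 6.63% of members near a short RNA gene. The difference in median is thus nearly absent when replicate 1 is left out. A limit of 300 bases gave a difference in median of 0.226 and 7.91% of genes. A limit of 1000 bases gave 318.5 per Mb, a median G+C of 34.3%, 15.2% of genes and 7.52% near a short RNA gene. Windows of 50 or 200 bases on each side gave medians of 34.7%. Of all members, 14 (0.709%) were among the 100 strongest autosomal regions, against 0.413% of all autosomal regions. On the optimal list the shares were 0.405% and 0.174%. Among the 2000 strongest were 9.56% of members, where the background is 2000 of the 24193 autosomal regions. Requiring 50% of the region to be covered left 22.2% in both replicates, and summits within 100 bases left 13.3%. Short RNA genes within 200 bases were near 3.95%. Of 84 alternatives for words, 48 moved the share. Windows of 50 or 200 bases moved it for every word, since a shorter or longer window holds a word less or more often. Those moves were fixed in advance and do not measure stability. No paired analysis was possible because both samples form 1 group. Depth is unknown, so weak regions cannot be told from noise, and with 1 strain and 2 replicates no difference was tested over samples.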

Other observations

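Chromosome position was looked at after the other values were known. In the central of 3 equal parts of each autosome there were 795 members at 380.6 per Mb, of which 3.52% were among the 500 strongest autosomal regions. The outer parts held 1181 members at 320.0 per Mb, with 2.62% among the strongest. The medians of signal were 7.76 and 7.67.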
